A study of Rattus norvegicus with 6 samples.

Results

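Transcripts of 5 genes of membrane trafficking and cell polarity were examined in the rat hippocampus: the scaffold genes Lin7a, Lin7b and Lin7c, the SNARE gene Ykt6 and the tethering gene Vps52. Every probe set whose platform annotation names exactly 1 of these genes was taken, which gave 8 probe sets of 7006 that name a single gene, among 8740 probe sets other than array controls. The 5 genes stand among 4737 distinct genes named in this way. Some have been discussed in work on these lines, and the set was chosen by trafficking role with the SHA against SLA intensities of these same arrays known. The line differences of the members are therefore a description and are given with no test.

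Syracuse High Avoidance (SHA) rats were set against Syracuse Low Avoidance (SLA) rats, lines bred for high and for low performance in shuttle-box avoidance. Whole hippocampi were collected 2 weeks after avoidance testing in both lines and combined into pools of 3 rats, with 3 pools per line and 1 array per pool. The pool is the replicate (n = 3 per line), and age, sex and strain background are not stated in the labels. Every rat had been tested, so a difference that existed before training and one that followed it cannot be told apart.

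Lin7 proteins are small scaffolds with a PDZ domain, named after the nematode gene lin-7, which places a growth factor receptor on one face of an epithelial cell. In neurons they bind Cask and Apba1 in a complex found on both sides of the synapse, and they link NMDA receptor cargo to the motor Kif17. Ykt6 is a SNARE without a membrane anchor of its own that attaches through lipids and acts in fusion between the endoplasmic reticulum, the Golgi, endosomes and autophagosomes. Vps52 is a subunit of the GARP and EARP complexes, which tether vesicles from endosomes to the trans-Golgi network or to recycling endosomes.

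Vps52 alone among the 8 probe sets separated the lines, and its start-site region is printed here because it is shared with a neighbouring gene. The window runs from 250 bases before to 50 bases after the annotated start, at chr20:4933409-4933708 on the minus strand of GRCr8, per RefSeq. The window of Rps18, a ribosomal protein gene on the opposite strand, overlaps it by 214 bases, and the annotated starts of the head-to-head genes lie 287 bases apart. The Ykt6 window, at chr14:85045939-85046238 on the plus strand, is printed beside it because it holds the same number of matches to the letters described next. Capitals mark CCGGAAG or its reverse complement CTTCCGG, letters that hold the GGAA core of ETS-family binding sites and that were picked after reading these windows.
Vps52: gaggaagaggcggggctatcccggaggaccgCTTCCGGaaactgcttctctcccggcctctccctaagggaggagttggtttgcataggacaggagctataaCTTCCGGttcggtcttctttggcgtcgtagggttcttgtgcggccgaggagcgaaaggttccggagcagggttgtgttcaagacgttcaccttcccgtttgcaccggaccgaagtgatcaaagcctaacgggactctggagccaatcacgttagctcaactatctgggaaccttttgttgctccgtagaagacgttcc
Ykt6: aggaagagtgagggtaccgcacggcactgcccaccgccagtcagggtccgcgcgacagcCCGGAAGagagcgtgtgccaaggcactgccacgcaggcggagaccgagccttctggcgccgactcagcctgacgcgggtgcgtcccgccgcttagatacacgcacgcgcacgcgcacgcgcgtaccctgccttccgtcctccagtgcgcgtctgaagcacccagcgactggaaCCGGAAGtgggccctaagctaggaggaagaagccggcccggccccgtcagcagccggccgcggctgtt
On the strands printed, the Vps52 window holds 2 copies of CTTCCGG and the Ykt6 window 2 copies of CCGGAAG. The copies in the Vps52 window lie in the stretch shared with the Rps18 window, so they are not particular to Vps52. The Lin7c window holds 1 match, and those of Lin7a and Lin7b hold 0. Of 33469 windows of this length in the table, 8.75% hold at least 1 match on either strand. A match is a description of the letters and not evidence of binding.

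The deposited values are linear intensities, already with a trimmed mean of 250.3 to 250.4 on every array. Between 4.95% and 15.9% of values per pool were at or under the floor defined here. Values under this floor of 8.9 were raised to it before log2 was taken. Of the 8 probe sets, 4 passed a filter that left out the dimmest 25%, namely 1 each of Lin7a, Lin7b, Ykt6 and Vps52, and the other 4 are given by their values. Differences are mean log2 SHA minus SLA ± standard error (SE) from limma fitted to all 6555 probe sets that passed.

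Vps52, on probe set rc_AI071435_at, lay lower in SHA hippocampus. It read 301.5, 293.6 and 190.3 in SHA pools 1, 2 and 3, against 720.2, 657.5 and 491.9 in the SLA pools of the same numbers. The brightest SHA pool was thus 190.4 below the dimmest SLA pool, and in each line the pool numbered 3 was the dimmest. The means were 262 ± 62.0 in SHA and 623 ± 118 in SLA (SD, n = 3 each), a difference of -1.26 ± 0.29 (SE 0.17 with the pool number as a block), or a level 2.40-fold lower in SHA. Within the numbers 1, 2 and 3 the differences were -1.26, -1.16 and -1.37, and with 1 pool left out they lay between -1.42 and -1.05. Of the 4 tested member probe sets, 1 had pools that did not overlap, where 3.65% of all tested probe sets did so with SHA lower and 2.01% with SHA higher. In counts that was 239 lower and 132 higher, against 206 and 188 after quantile normalization and 173 and 149 after median centring. Since Vps52 was picked with this difference in view, nothing is read from that count.

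Over the whole array, 0 of 6555 probe sets (0%) had a limma adjusted p under 0.05, and 98, or 1.5%, had an unadjusted p under 0.05. With the pool number as a replicate block the unadjusted count was 345, and 0 again passed after adjustment. The Vps52 difference was the 72nd most negative of the 6555 tested. Vps52 was represented by this 1 probe set, so no second probe set bears on its value.

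Ykt6 was read by 2 probe sets. The brighter, AF033027_at, read 171.3, 125.0 and 145.0 in SHA pools 1, 2 and 3, against 126.0, 97.0 and 76.1 in SLA. The lines overlapped narrowly, since SHA pool 2 at 125.0 was just under SLA pool 1 at 126.0, while each SHA pool exceeded the SLA pool of its own number. The means were 147 ± 23.2 in SHA and 99.7 ± 25.1 in SLA (SD, n = 3 each), a difference of 0.58 ± 0.37. Differences within the numbers were 0.44, 0.37 and 0.93. After quantile normalization or median centring of the arrays the pools of the lines no longer overlapped, and the difference was 0.61 and 0.63.

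The second Ykt6 probe set, rc_AA956066_at, fell below the filter and did not follow the first. It read 37.1, 6.3 and 10.3 in SHA pools, against 13.9, 7.5 and 22.0 in SLA pools, with 1 pool of each line at or under the floor. Its difference of 0.11 was the mean of 1.42, 0.00 and -1.09 within the numbers, so SHA was far above SLA in one pair of pools and far below it in another.

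Lin7a was read by 3 probe sets with unlike patterns. AF090134_at, the brightest, read 248.9, 182.2 and 245.0 in SHA pools and 283.1, 214.4 and 144.9 in SLA pools. The SHA range lay inside the SLA range, with means of 225 ± 37.4 in SHA and 214 ± 69.1 in SLA (SD, n = 3 each) and a difference of 0.11 ± 0.34. Its sign depended on the pools, being -0.19 and -0.23 for numbers 1 and 2 and 0.76 for number 3, and the difference was -0.14 without SLA pool 3 and between 0.03 and 0.34 with any other pool left out. It was 0.50 with array weights and -0.07 with array weights and the pool number as a block.

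The other Lin7a probe sets were dim. AF090134_g_at, designed to the same accession, read 27.0, 20.3 and 44.4 in SHA pools and 17.4, 21.3 and 19.6 in SLA pools. Its mean level stood at percentile 23.1 of all non-control probe sets, just under the filter, and its difference of 0.58 came with SHA pool 2 inside the SLA range. AF090135_at read 39.7, 12 and 36.1 in SHA pools and 13.8, 9.4 and 5.1 in SLA pools. SHA was higher within each number, by 1.52, 0.35 and 2.02, but SHA pool 2 lay under SLA pool 1, and SLA pool 3 was below the floor, so the size of its difference of 1.30 depends on that floor.

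Lin7b, on AF090133_at, was highest in the pools numbered 2 of both lines. It read 160.0, 266.8 and 99.3 in SHA pools and 112.2, 206.2 and 134.9 in SLA pools. The means were 175 ± 84.8 in SHA and 151 ± 49.0 in SLA (SD, n = 3 each), and the difference of 0.15 ± 0.44 was smaller than the spread between pools of a line. Within the numbers it was 0.51, 0.37 and -0.44. Without SHA pool 2 the difference was -0.21, without SLA pool 1 it was -0.04, and with any other pool left out it lay between 0.09 and 0.50.

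The pools numbered 2 also had the lowest added hybridization controls. The geometric mean of 9 such probe sets was 1121 and 639.7 in SHA and SLA pools 2, against 2279 and 1564 in pools 3 and 5458 and 12282 in pools 1. Their part in the Lin7b values was not tested.

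Lin7c, on AF090136_at, was barely above the lowest values of the arrays. It read 4.8, 4.2 and 25.2 in SHA pools and 12.3, 6.3 and 7.3 in SLA pools, with 4 of the 6 pools at or under the floor. A line difference cannot be described from these values, and a level this low does not show that the transcript is absent.

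**Figure D1:**
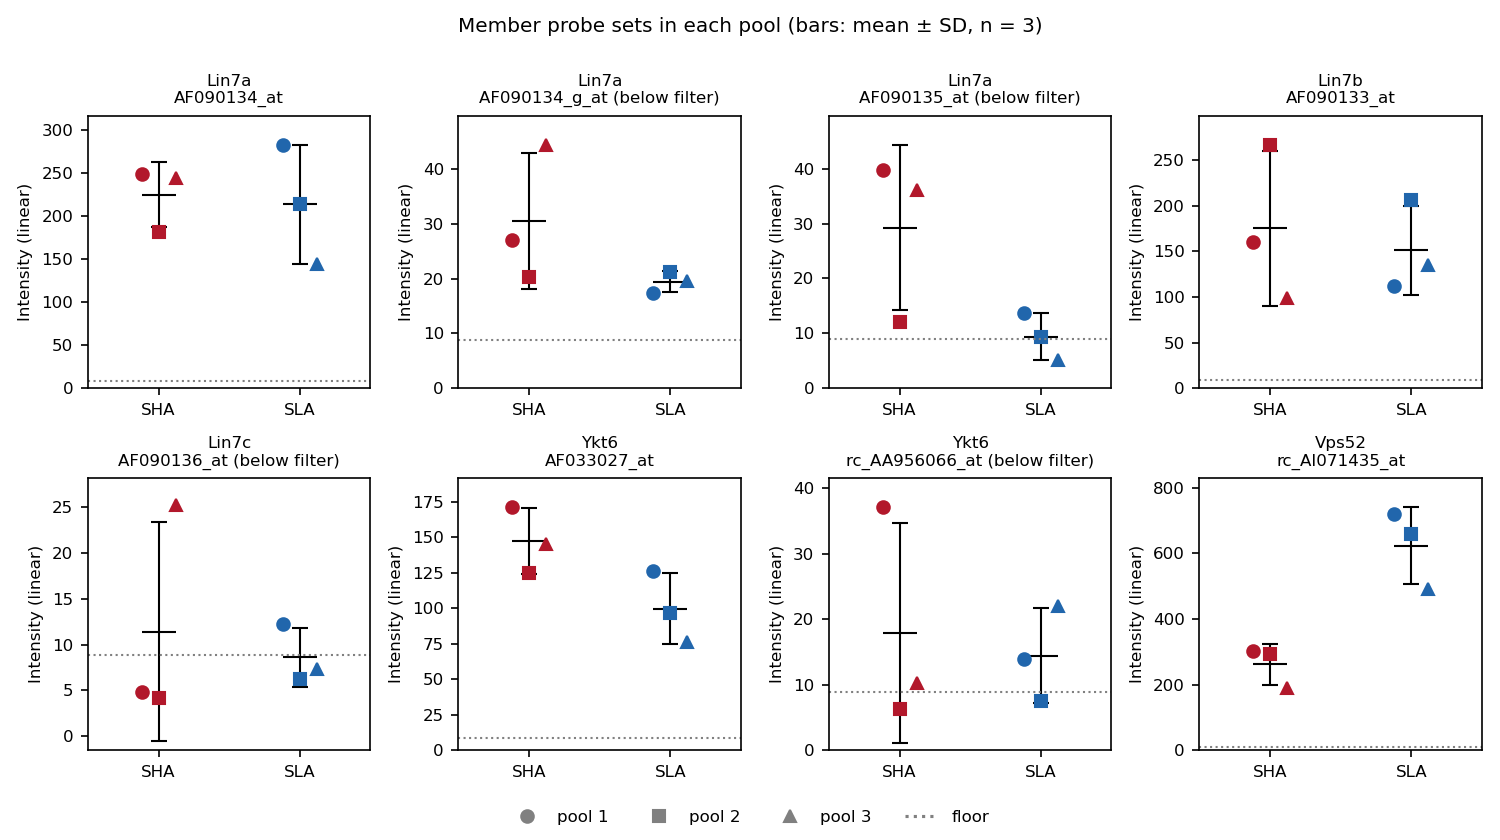
Linear intensity (y axis) of each of the 8 member probe sets in SHA (left, red) and SLA (right, blue) pools, with 1 panel and scale per probe set, symbols for the pool number, bars for mean ± SD (n = 3) and a dotted line for the floor of 8.9. The Vps52 pools are apart, with SHA at 190.3 to 301.5 and SLA at 491.9 to 720.2, and the other 7 probe sets overlap.

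Set side by side, 7 of the 8 member probe sets had a mean difference above 0 and 1 below, and of the 4 tested 3 lay above 0. Those above 0 include AF090136_at of Lin7c and rc_AA956066_at of Ykt6, with 4 and 2 pools at or under the floor. No common direction is read from these counts. Between same-numbered pools, 2 probe sets (AF033027_at of Ykt6 and AF090135_at of Lin7a) were higher in SHA in all 3 comparisons, and Vps52 was lower in all 3. The median difference of the 4 tested members was 0.13, beside -0.01 over all tested probe sets, and 51.9% of all tested probe sets lay below 0. The spread over the 6 pools, as the log2 range, was 0.97 for Lin7a, 1.43 for Lin7b, 1.17 for Ykt6 and 1.92 for Vps52, at percentiles 31.1, 54.4, 42.7 and 71.7 of the ranges of all tested probe sets.

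**Figure D2:**
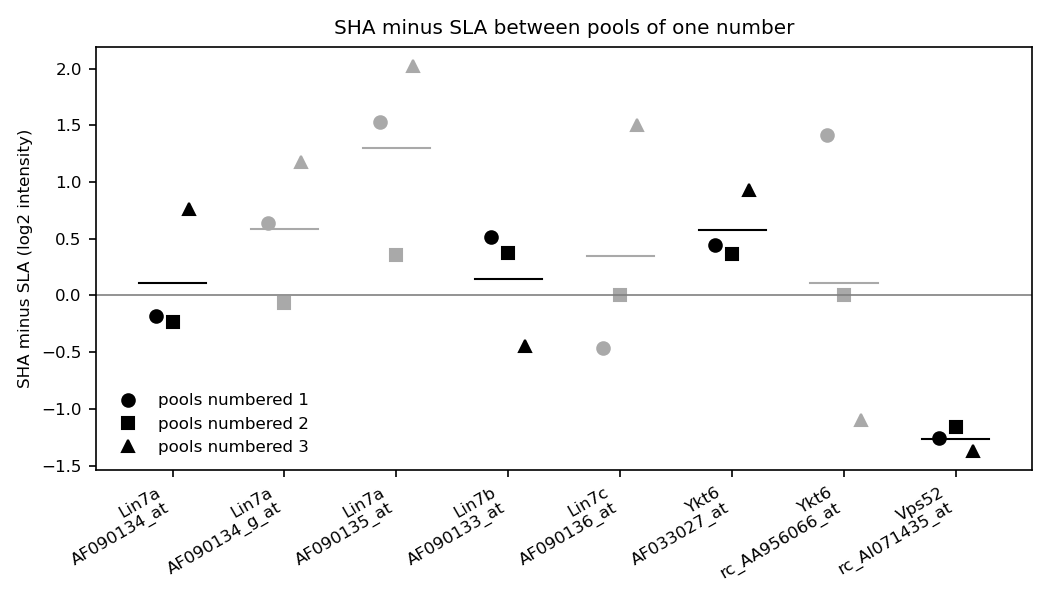
Difference SHA minus SLA in log2 intensity (y axis) between pools that carry the same number, for each member probe set (x axis). Horizontal strokes are the means, and grey marks the 4 probe sets below the filter. Vps52 lies between -1.37 and -1.16 in all 3 comparisons, whereas Lin7a on AF090134_at and Lin7b on AF090133_at cross 0.

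Cell composition was read from marker genes. Of 10 microglia markers 7 were measured, 2 with a mean higher and 5 lower in SHA, and their summed intensity was 580.4 to 714.3 in SHA pools and 872.0 to 906.4 in SLA pools. These sums were thus separated between the lines in the same direction as Vps52. Among these markers Itgam was at or under the floor in at least 1 pool and 0 were there in all pools. All 5 measured neuron markers, Snap25, Syt1, Nefl, Map2 and Camk2a, had a higher mean in SHA, with sums of 5005 to 7713 in SHA pools and 3912 to 6959 in SLA pools that overlapped. Of 5 hippocampal markers 4 were measured, none at the floor, with sums of 5995 to 8526 in SHA pools and 5325 to 7898 in SLA pools. Oligodendrocyte markers were lower in SHA for 4 of 5 measured, with sums of 14449 to 21166 in SHA pools and 14129 to 26111 in SLA pools. Of the measured markers, 3 of 5 for astrocytes, 2 of 3 for choroid plexus and 0 of 2 for blood had a higher mean in SHA, and their sums overlapped between the lines. The part of cell composition in the member differences was not tested, and in whole tissue fewer cells of a type and less RNA per cell cannot be told apart.

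Vps52 lies on chromosome 20 inside the major histocompatibility complex, called RT1 in the rat. In gene order it stands between RT1-A1, a class I antigen-presenting gene followed by RT1-A2 and RT1-A3, and Rps18. Class I probe sets were looked up only under RT1-A and RT1-CE names, and those under other class I names were not read. Of those looked up, RT1-A, RT1-CE12 and RT1-CE16 named 1 gene and were bright enough to test. These probe sets had pools apart in the direction of Vps52, with differences of -0.81 ± 0.22, -0.63 ± 0.22 and -0.81 ± 0.25. Across the array, 3.65% of tested probe sets lay apart with SHA lower. The class I probe sets were read outside the naming rule, with earlier results of these data known, so nothing is read from their count. They can read related class I transcripts, so they may not be separate readings and are not placed at a single gene beside Vps52. RT1-A3 itself, on AJ005023_at, was below the filter at 30.6, 7.7 and 13.4 in SHA pools and 32.5, 17.2 and 29.0 in SLA pools, which overlapped. Its difference was -0.72, with SHA pool 2 under the floor.

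The 10 genes nearest Vps52, up to 5 per side, with a probe set of their own that passed the filter were also read. RT1-A3 did not pass, so it is not among these 10. The 10 genes reach 18 genes away, and all had overlapping pools, with 5 higher and 5 lower in SHA and differences from -0.54 to 0.33. Pools apart were rare on the whole array, at 3.65% of tested probe sets with SHA lower and 2.01% with SHA higher. Nothing is therefore read from the overlap in these 10 genes. The closest, B3galt4, a galactosyltransferase on the Rps18 side, read 137.2, 72.3 and 275.0 in SHA pools and 172.9, 98.9 and 95.3 in SLA pools (0.25 ± 0.52). On the other side Hsd17b8, a steroid and fatty acid dehydrogenase, differed by 0.33 ± 0.62, and Rxrb, a retinoid receptor, by 0.06 ± 0.26. The class II genes RT1-Ha, RT1-DOa and RT1-DMa in this stretch differed by -0.54 ± 0.89, -0.14 ± 0.25 and -0.20 ± 0.28. Farther on the Rps18 side, Cuta, Bak1, Itpr3 and Uqcc2 differed by -0.22, 0.03, -0.10 and 0.06. Rps18 is named only by a probe set that names several genes, and was not used here.

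Around the other members, pools did not overlap for 3 of 33 measured neighbours, counted up to 5 per side within 25 genes, beside 2.01% of all tested probe sets apart with SHA higher and 3.65% with SHA lower. Camk2b, a subunit of calcium/calmodulin kinase II that directly follows Ykt6 on chromosome 14, differed by 0.02 ± 0.30. Purb, a DNA- and RNA-binding protein 10 genes from Ykt6, read 88.2, 74.6 and 123.2 in SHA pools and 57.5, 68.6 and 70.9 in SLA pools (0.51 ± 0.43) and was the neighbour of Ykt6 whose pools lay apart. The other Ykt6 neighbours, Myl7, Aebp1, Dbnl, Urgcp, Ccdc117, Igfbp3 and Tns3, lay between -0.71 and 0.04.

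Beside Lin7b on chromosome 1, 9 of 10 measured neighbours had a mean lower in SHA, where 51.9% of all tested probe sets did. Of these, Cd37, Gfy, Rpl13a, Ntf4, Lhb and Ppp1r15a differed by less than their SE, Rpl13a by -0.01 ± 0.35. Snrnp70, a spliceosome protein directly after Lin7b, differed by -0.27 ± 0.24. Nucb1, a calcium-binding Golgi protein 12 genes away, had pools apart at -0.36 ± 0.22, with 2048, 1790 and 1931 in SHA pools and 2638, 2105 and 2687 in SLA pools. The others, Cd37, Gfy, Rpl13a, Fcgrt, Rcn3, Ntf4, Lhb and Ppp1r15a, lay between -0.51 and 0.50. Beside Lin7c on chromosome 3, the neurotrophin gene Bdnf directly before it differed by -0.34 ± 0.51 and Lgr4, a receptor of the R-spondins directly after it, by -0.94 ± 0.76. Its other neighbours Kcna4, Fshb, Elp4 and Rcn1 lay between -0.40 and 0.97. Of the 8 neighbours of Lin7a on chromosome 7, Dusp6, an ERK phosphatase 21 genes away, had pools apart at 1.08 ± 0.38, and Slc6a15, Atp2b1, Ppp1r12a, Pawr, Syt1, Csrp2 and Nap1l1 lay between -0.45 and 0.67.

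**Figure D3:**
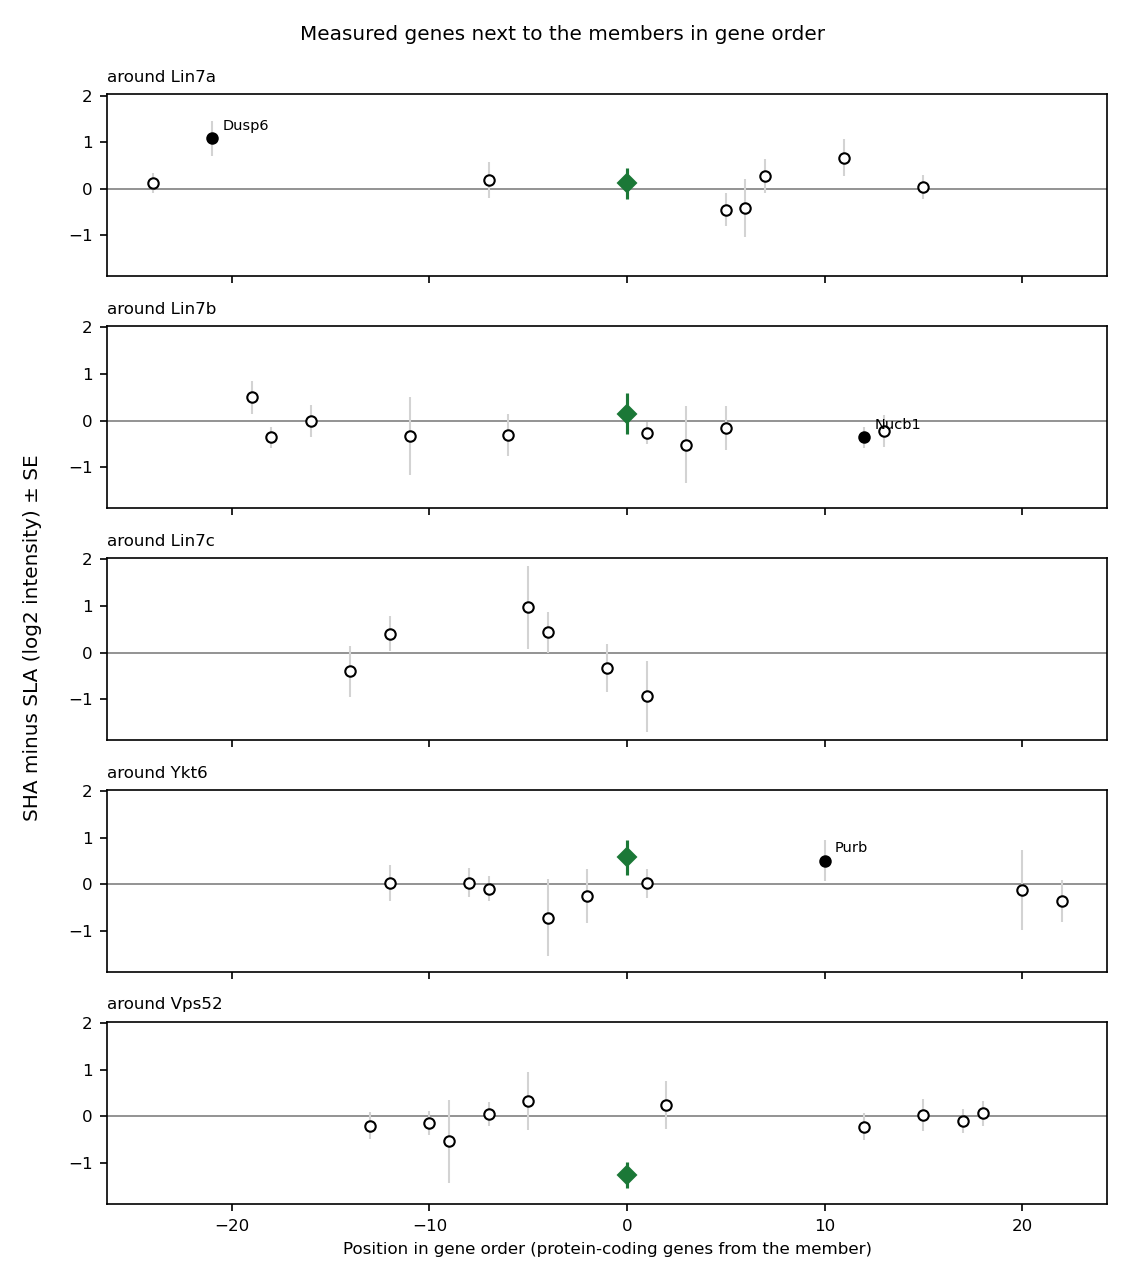
Difference SHA minus SLA in log2 intensity ± SE (y axis) of measured genes by their place in gene order from each member (x axis, 0 at the member, shown as a green diamond where tested). Filled circles are the 3 genes whose pools did not overlap, Dusp6, Nucb1 and Purb. Vps52, at -1.26, lies below all 10 of its tested neighbours, which lie between -0.54 and 0.33.

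Genes that work with the members were read from 5 lists, with the brightest tested probe set per gene. Of 188 genes listed 105 were tested, 57 with a mean higher and 48 lower in SHA, and the median difference was 0.03, beside -0.01 over all probe sets. On that probe set none passed limma's test (the adjusted p was 1.00 for each), and 0 had an unadjusted p under 0.05, where 1.5% of all probe sets did. Pools did not overlap for 3 genes higher and 2 lower in SHA, or 4.76% of the 105, where 2.01% of all tested probe sets lay apart with SHA higher and 3.65% with SHA lower. Of 41 further tested probe sets of these genes, 1 had an unadjusted p under 0.05 and 3 had pools apart, all with SHA higher.

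Among Lin7 binding partners and polarity scaffolds, 15 genes were tested, 7 higher and 8 lower, with a median of -0.04. Cask, the kinase-like scaffold that Lin7 binds directly, read 107.8, 181.4 and 96.8 in SHA pools and 66.3, 191.0 and 143.3 in SLA pools (0.02 ± 0.48), and is named for that role outside the naming rule, as is Grin2b, an NMDA receptor subunit carried with Lin7, at 0.22 ± 0.26. Apba3, a relative of the Lin7 complex partner Apba1, was the gene of the list with the smallest unadjusted p, at 0.080. It read 14.1, 63.3 and 71.6 in SHA pools and 100.4, 97.4 and 96.8 in SLA pools, and all SHA pools lay below the SLA pools. Most of its difference of -1.30 ± 0.66 came from SHA pool 1, with -2.83, -0.62 and -0.44 within the numbers. Kcnj4, an inward rectifier potassium channel, differed by -0.33 ± 0.33 on one probe set and 0.71 ± 0.55 on the other.

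Among SNAREs of the endoplasmic reticulum, Golgi and endosomes and their regulators, where Ykt6 acts, 19 genes were tested, 9 higher and 10 lower, with a median of -0.02. On the brightest probe set of each gene the pools of all 19 overlapped. Gosr1, Gosr2 and Stx5, SNAREs of the early secretory pathway named for that role rather than for their values, differed by -0.24 ± 0.56, 0.18 ± 0.42 and -0.12 ± 0.32. Bet1l, another SNARE of the list, differed by -0.19 ± 0.51. The other probe sets of Stx5 differed by 0.61 and 0.30. Vamp5, a vesicle SNARE of muscle and other tissues, had the smallest unadjusted p of the list (0.18), with 94.8, 51.7 and 91.2 in SHA pools and 53.0, 42.0 and 45.3 in SLA pools (0.72 ± 0.49). Its other probe set differed by 0.71 ± 0.60, with pools apart. Vps45, which regulates endosomal SNAREs, differed by 0.31 ± 0.29.

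Tethering complexes and retromer, the class to which Vps52 belongs, had 16 genes tested, 9 higher and 7 lower, with a median of 0.05. The GARP partners Vps51, Vps53 and Vps54 and the EARP partner Vps50 were not analysed here, as no probe set used names them alone. The retromer subunits Vps26a and Vps29, which also act in retrograde transport, differed by 0.14 ± 0.60 and 0.16 ± 0.39 and are named for that role. Uso1, a Golgi tether also called p115, had the smallest unadjusted p (0.18) and read 228.1, 247.3 and 279.1 in SHA pools, all above the SLA pools at 137.4, 208.1 and 219.5 (0.44 ± 0.31). Its Golgi partner Golga2 lay on the other side, at -0.36 ± 0.28. No gene of the list was as far below 0 as Vps52, the lowest being Golga2.

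Coats, adaptors and Arf GTPases had 26 genes tested, 14 higher and 12 lower, with a median of 0.03. Arl3 and Ap2a2 had the smallest unadjusted p values, 0.23 and 0.32, at differences of 0.48 ± 0.38 and 0.46 ± 0.44. Sec31a, a subunit of the COPII coat, had the 1 further probe set with an unadjusted p under 0.05 (1.16 ± 0.46, pools apart), while its brightest differed by -0.14 ± 0.41 and the remaining one by 0.35 ± 0.73. Cltb, a clathrin light chain, likewise had pools apart on one probe set (0.50 ± 0.37) and differed by -0.20 ± 0.28 on its brightest and -0.07 ± 0.64 on the remaining one. Both are named after their values were seen. Of the clathrin adaptor AP-2, Ap2m1 had SHA pools above the SLA pools (0.09 ± 0.22). Ap2b1 had them below (-0.17 ± 0.22) on its brightest probe set, while its other probe sets differed by -0.03 and 0.19. Both differences with pools apart were smaller than their SE, and Ap2m1 and Ap2b1 too are named after their values were seen. The AP-2 subunits Ap2a2 and Ap2s1 differed by 0.46 and 0.19, and the other Ap2s1 probe set by 0.30. Arl1, a trans-Golgi GTPase named for that role, differed by 0.00 ± 0.28, and by 0.15 and -0.26 on its other probe sets.

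Rab GTPases and their regulators had 29 genes tested, 18 higher and 11 lower, with a median of 0.15. Rph3a, an effector of Rab3 on synaptic vesicles, had the smallest unadjusted p of all 105 genes (0.069) and read 78.4, 66.7 and 91.5 in SHA pools and 24.8, 58.8 and 33.2 in SLA pools, with all SHA pools above the SLA pools (1.10 ± 0.54). Within the Rab list Rab3a itself had the next smallest unadjusted p, at a difference of 0.43 ± 0.26. Rab6a, a Golgi GTPase of the retrograde route, differed by -0.01 ± 0.28.

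**Figure D4:**
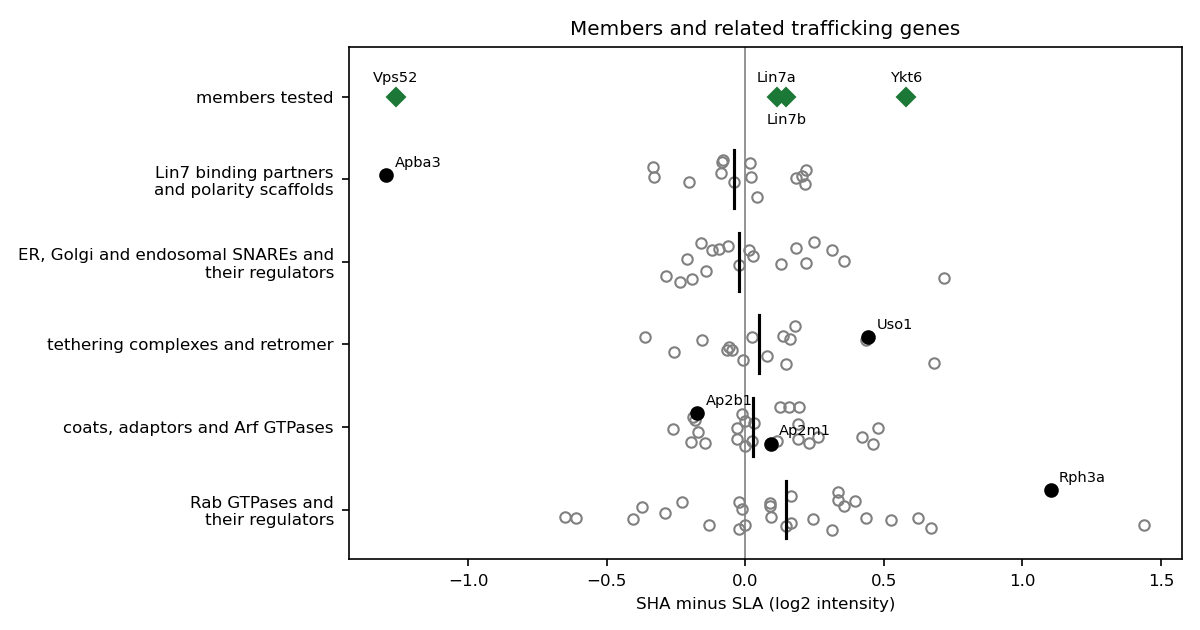
Difference SHA minus SLA in log2 intensity (x axis) of the 4 tested members (diamonds) and of the tested genes of each related list (circles, filled and named where the pools of the lines did not overlap), with vertical strokes at list medians. List medians lie between -0.04 and 0.15, and Vps52 at -1.26 and Apba3 at -1.30 are the points farthest to the left.

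Genes whose log2 values over the 6 pools followed each tested member most closely were found by Pearson correlation among 6554 probe sets, as a description, since all share the same arrays and scaling. For Vps52 they were Irf1, an interferon-response transcription factor (0.981), Cstb, a cathepsin inhibitor (0.981), and Tpm4, a tropomyosin (0.977), and 36 probe sets reached 0.9. Irf1 read 97.4, 98.4 and 80.2 in SHA pools and 121.4, 118.0 and 106.9 in SLA pools, with SHA lower in every pool and the pool numbered 3 lowest in each line, as for Vps52. For Ykt6 they were Ccnd1, a cyclin of the G1 phase (0.966), Ap2m1 of the AP-2 adaptor (0.961), and Tubb5, a beta-tubulin (0.958), and 15 probe sets reached 0.9.

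For Lin7a the closest were Gfra2, the neurturin receptor (0.996), Inhbe, an inhibin subunit (0.976), and Ciao2b, of cytosolic iron-sulfur assembly (0.970), with 46 probe sets at 0.9 or more. For Lin7b they were Atxn7l3, of the SAGA complex (0.993), Prpsap1, a regulator of nucleotide synthesis (0.982), and Hnrnpu, a nuclear RNA-binding protein (0.981), with 94 probe sets at 0.9 or more. Hnrnpu read 951, 1291 and 699 in SHA pools and 830, 1208 and 862 in SLA pools, highest in the pools numbered 2 of both lines as Lin7b was. With 6 pools, likeness of this kind rests on few values, and none was computed for Lin7c, which was at the floor in 4 pools.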

How the data were processed

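RNA of 6 hippocampal pools was measured on 1-colour oligonucleotide arrays. The deposited intensity values are linear with 1 decimal; from the values, the authors had scaled each array to a common trimmed mean. The sources used here do not give the software. Of 8799 probe sets 59 are controls. Values were floored at 8.9 (the 10th percentile), log2-transformed and filtered (dimmest 25% out, 6555 left). SHA was compared with SLA by limma 3.58.1 in R 4.3.3 (lmFit, eBayes with trend, two-sided, Benjamini-Hochberg over 6555, threshold 0.05); the pipeline was tested on simulated data. The number of arrays limits precision. The p-values set the line difference against the spread between pools, and the spread between single rats was not measured.

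Symbols were updated through a GRCr8 gene table, which also gave gene order (6985 of 7006 probe sets matched); promoter windows are RefSeq's. Members, lists and tests were chosen with earlier results of these data known. Named genes: all member probe sets; per list up to 4 genes in each direction by smallest unadjusted p under 0.05, or else the 2 of smallest p; measured neighbours; and the 3 closest genes by correlation. Genes named for their role and the class I probe sets are outside this rule.

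Deviations from the line means correlated at 0.44, 0.68 and 0.13 between pools numbered 1, 2 and 3, and SHA pool 3 with SLA pool 1 at 0.16. All same-numbered values exceed 0.1, so same-numbered pools were also set side by side, and number was a block in alternative fits. No label states this pairing, and SHA pool 3 was closer to SLA pool 1 than to SLA pool 3. Differences, SEs and p-values in the text are from the fit without this block unless it is named. Alternatives were scaling, filter, floor, variance trend, array weights, the replicate block, leaving out pools and averaging probe sets per gene. Array correlations across probe sets were 0.846 to 0.973.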

Additional observations from a re-analysis of the deposited data

How the results depend on the processing

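The Vps52 and Ykt6 differences kept their sign in all 17 alternative settings run, at -1.42 to -1.05 and 0.40 to 0.85, while that of Lin7a lay between -0.14 and 0.50 and that of Lin7b between -0.21 and 0.50. The count of 0 probe sets past an adjusted p of 0.05 held except with the replicate block and array weights together, where 12 passed. Vps52 was among these 12, but it was picked with its difference in view, so nothing is read from this. Of all probe sets, 98 had an unadjusted p under 0.05. That count rose under the replicate block to 345, under array weights to 354 and under both to 871. It was 203 when dim probe sets were kept and 63 when the dimmer 50% were dropped. Omitting SHA pool 1 gave 62, SHA pool 2 gave 151, SLA pool 2 gave 152 and SLA pool 3 gave 57, so single omissions spanned 57 to 152. Among the related genes the count of 0 at that limit became 2 under the replicate block, 7 under array weights and 9 under both, and was 1 with the floor at the 25th percentile, 1 with no trend and 0 to 2 with 1 pool left out, and 0 passed an adjusted p of 0.05 in any setting. Pools did not overlap for 371 probe sets, 132 higher and 239 lower in SHA, a split that median centring changed to 149 higher and 173 lower, and quantile normalization to 188 higher and 206 lower. With fewer pools overlap is rarer by construction: that count was 710 to 1030 with 1 pool left out and 1589 without both pools numbered 1. Members without overlap were 1 in the main setting, 2 after quantile normalization, after median centring and without both pools numbered 1, and 1 to 2 with 1 pool left out. Neighbours without overlap were 3, against 5 after quantile normalization, 5 without both pools numbered 1 and 4 to 9 with 1 pool left out. The block without array weights changed no other call. The cause of these shifts was not tested.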
